A study of Schizosaccharomyces pombe with 4 samples.

Results

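The pre-mRNA splicing genes of fission yeast (Schizosaccharomyces pombe) are described here as 65 of the 7092 genes in the authors' deposited table. A gene was taken when its biological process annotation in that table held the phrase "mRNA splicing, via spliceosome", its status was OK, and its FPKM averaged at least 1 over both groups. FPKM is the number of fragments scaled to transcript length and sequencing depth, a level per length. Of 71 genes with the phrase, 6 that also carried the term rRNA processing were left out. No gene with the phrase was lost to the level minimum or status, and none was a small nuclear RNA or lay within 100 kb of a chromosome end. The closest was usp109, 123 kb from the outermost annotated locus. The term itself was carried by 53 of the 65, and 12 held the phrase only inside a longer term such as regulation of splicing. The lowest members by mean level of both groups were prp24, at 1.04 FPKM under the Atf1 label and 1.21 FPKM under the vector label, and mug28 at 3.40 and 1.84 FPKM. No gene with the phrase lay just under the minimum.

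The study asks how expression changes when the stress-response transcription factor Atf1 is over-expressed without its bZIP partner Pcr1. All 4 libraries are labelled h90 (homothallic), with ade6, leu1 and ura4 markers and with pcr1 replaced by ura4+. In the vector group, 2 libraries carried the empty plasmid pREP41, and in the Atf1 group 2 carried pREP41-Atf1. On this plasmid an insert is driven by a medium-strength form of the nmt1 promoter, which thiamine represses. Both groups were kept at 30 °C, with 20 µM thiamine overnight and without thiamine for the next 24 h. Whether the libraries within a group are separate cultures is not stated in the labels.

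Splicing removes introns from nascent transcripts in a pair of chemical steps inside the spliceosome. The U1 particle binds the start of an intron and the U2 particle its branch site, and the U4/U6.U5 tri-snRNP then joins. After U1 and U4 leave, the Prp19 complex stabilises the active site, and RNA helicases drive the transitions. Many fission yeast genes hold introns, which are mostly short, and several spliceosome proteins were identified in this yeast as cdc or prp mutants or as partners of Cdc5 (cwf).

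Each gene has 1 pooled FPKM for each group, which leaves the spread between libraries and their depth unknown. Differences are log2(FPKM + 1), Atf1 label minus vector label. Only genes with q under 0.05 in the authors' deposited table are said to have risen or fallen. FPKM summed to 1321550 in the Atf1 group and 835070 in the vector group, and the median difference was -0.11 over 6219 kept genes and -0.22 over 4971 kept nuclear protein-coding genes. The levels of the manipulated genes did not all match the genotypes given. The gene atf1 was at 54.4 FPKM under the Atf1 label and 60.9 FPKM under the vector label, with q = 0.997 in the authors' deposited table. The deleted pcr1 was at 66.4 and 35.8 FPKM, and its marker ura4 was listed at 0 under the Atf1 label and at 125 FPKM under the vector label, where the authors' deposited table gives q = 0.00809. For ura4 only the 0 under the Atf1 label goes against the genotype given, so the groups did not agree on this marker. Whether they differ in genotype is not known. Each direction below is thus one between labels, and it is not known to be one between amounts of Atf1.

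Splicing genes lay mostly lower in the libraries labelled Atf1, and 1 of them, csx1, rose. The median difference over the 65 genes was -0.38, with quartiles of -1.0 and 0.01 and a range from -1.56 to 1.71. That median depends on how the groups are scaled, which the authors' files do not show: it was -0.26 with median-of-ratios scaling and -1.02 with equal FPKM totals. Levels were lower in 48 genes and higher in 17, so 26.2% were higher, against 39.9% of protein-coding genes and 44.6% of all kept genes. Lower were 73.8%, against 60.1% of protein-coding genes. Of the 19 splicing genes alone in their locus 36.8% were higher, and of the 46 sharing a locus 21.7%. The median of the splicing genes was 0.16 under that of protein-coding genes (a difference of -0.16), a gap that a common scaling factor hardly touches. It was -0.26 with a minimum mean of 10 FPKM and -0.15 with a pseudocount of 5. The gene sets were not matched for level or intron number, by which values are given below. The summed level of the splicing genes was higher under the Atf1 label, at 4233 FPKM against 3878 FPKM, and without the abundant snu13 it was lower, at 2050 against 2274 FPKM. As a share of all FPKM the 65 genes took 0.320% under the Atf1 label and 0.464% under the vector label. Without snu13 the shares were 0.155% and 0.272%. The share of all 65 was lower because the FPKM total of the Atf1 group is larger.

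By the authors' q-value, 1 splicing gene was higher and 0 were lower, beside 1.82% of all kept genes higher and 0.129% lower. At an unadjusted p under 0.05 in the authors' deposited table, 2 of the 65 were higher and 4 lower. These are 3.08% and 6.15% of the splicing genes, beside 6.8% and 4.04% of all kept genes. On the log2(FPKM + 1) scale, 3 splicing genes were at least 2-fold higher (csx1, lsm6 and rna4), beside 11.4% of protein-coding and 15.5% of all kept genes. At least 2-fold lower were 17, or 26.2% of the splicing genes, beside 14.1% of protein-coding and 13.1% of all kept genes. That last count sits on its threshold: 15 of the 17 were lower by less than 1.3 on the log2 scale, and 2 by more. With a pseudocount of 5 the count was 2, with median-of-ratios scaling 7 and with equal FPKM totals 35. Among splicing genes alone in their locus it was 2 of 19, or 10.5%, which is not above the 14.1% of protein-coding genes.

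**Figure D1:**
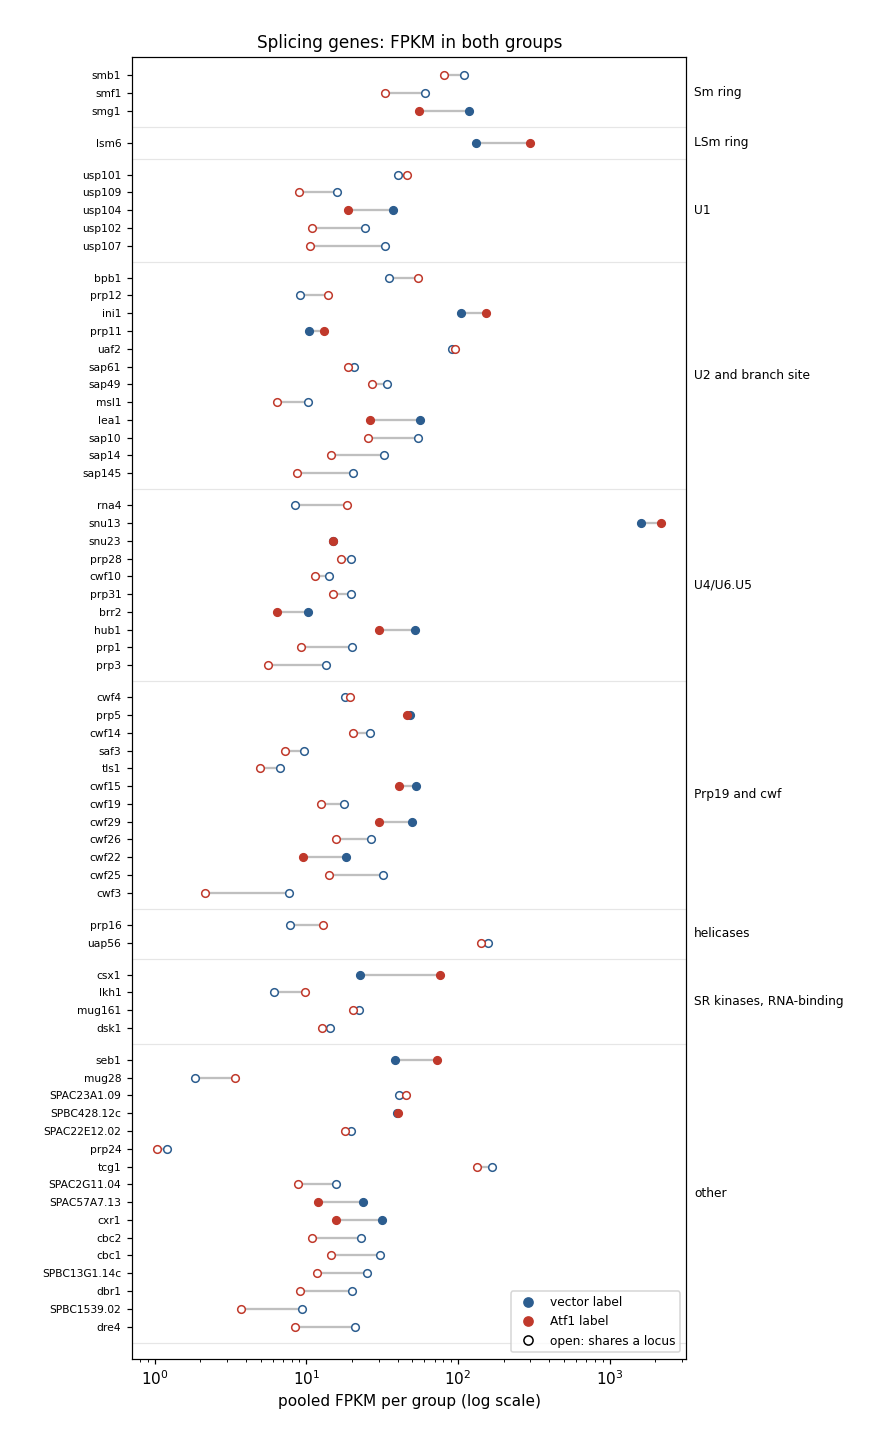
Pooled FPKM of the 65 splicing genes (x axis, log scale) by role, under the Atf1 label in red and the vector label in blue; open points mark genes that share a Cuffdiff locus with another gene. Most red points lie left of their blue partner, csx1, lsm6 and rna4 lie to the right by at least 2-fold on the log2(FPKM + 1) scale, and snu13 stands far above all others in both groups.

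The same splicing gene led the order of levels in both groups. It was snu13, whose protein binds U4 RNA and also box C/D small nucleolar RNAs, at 2183 FPKM under the Atf1 label and 1603 FPKM under the vector label. With the Atf1 label lsm6 followed at 296 FPKM, then ini1 at 153, uap56 at 142 and tcg1 at 133 FPKM. With the vector label tcg1 was next at 167 FPKM, then uap56 at 157, lsm6 at 132 and smg1 at 118 FPKM. The median splicing gene was at 15.0 FPKM under the Atf1 label and 22.9 FPKM under the vector label. Without a spread between libraries, it cannot be said which neighbours in these orders differ.

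The Sm proteins form the ring around the U1, U2, U4 and U5 RNAs, and 3 of their genes carry the term. All 3 were lower, with a median of -0.87. The gene smg1 (SPBC4B4.05, ASM294v2 chromosome II 3421290-3421966, alone in its locus) was at 55.6 FPKM under the Atf1 label and 118 under the vector label, a difference of -1.08. The gene smf1 was at 32.9 and 60.9 FPKM (-0.87) and smb1 at 80.9 and 109 FPKM (-0.42), both in loci of 5 genes. None passed the authors' threshold. The other 4 genes of the ring, which lack the term, went both ways: smd2 had a difference of -0.64, sme1 of -0.48, smd1 of 0.05 and smd3 of 0.70.

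The LSm proteins form the matching ring on U6 RNA, and a variant of that ring acts in mRNA decay in the cytoplasm. Here lsm6 was the single member, since lsm2, lsm3, lsm5 and lsm8 also carry rRNA processing. It is alone in its locus (SPAC2F3.17c, chromosome I 3923586-3924176) and was at 296 FPKM under the Atf1 label and 132 under the vector label, a difference of 1.16. The authors' deposited table gives p = 0.0218 and q = 0.462, so lsm6 did not pass. The other LSm genes did not share its direction and size. The genes lsm8 (10.46 and 24.99 FPKM, -1.18), lsm2 (11.3 and 23.3 FPKM, -0.98) and lsm5 (82.6 and 119 FPKM, -0.52) were lower, and lsm3 was at 37.0 and 33.8 FPKM (0.12). The remaining lsm4 and lsm7, which lack the term, were at 26.4 and 34.8 FPKM (-0.38) and at 429 and 428 FPKM (0.00).

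Of 5 genes of the U1 particle, which recognises the 5′ splice site, 4 were lower and the median was -0.95. The gene usp107 (SPBC839.10, chromosome II 618349-621873, a locus of 2 genes) had the lowest difference of all splicing genes on this scale, though cwf3 was lower by the plain FPKM ratio (0.281 against 0.319 for usp107). The level of usp107 was 10.5 FPKM under the Atf1 label and 33.0 under the vector label (-1.56). In the authors' deposited table its p was 0.0128 and its q 0.358. The gene usp102, which codes for a core U1 protein, was at 10.8 and 24.3 FPKM (-1.10), and the Prp40 homologue usp104, alone in its locus, at 18.8 and 37.2 FPKM (-0.95). The gene usp109 was at 8.95 and 16.0 FPKM (-0.77). The gene usp101, for the U1 protein that contacts the RNA's first stem loop, stood apart in direction at 46.4 and 39.9 FPKM (0.21), and it was lower (-0.45) once both groups were given equal FPKM totals. The locus of usp101 holds 7 genes. The loci of smg1 and usp102 lie 410 bases apart on chromosome II, and their differences were -1.08 and -1.10.

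Of the 12 genes of the U2 particle and branch site recognition, 5 were higher and 7 (58.3%) lower, near the 60.1% of protein-coding genes lower. Their median was -0.22, also close to that of protein-coding genes. The lower genes were mainly subunits of the SF3 complexes and the U2 core. The gene lea1, coding for a U2 core protein (SPBC1861.08c, chromosome II 4145285-4146278, alone in its locus), was at 26.4 FPKM under the Atf1 label and 56.4 under the vector label (-1.07), and the authors' deposited table gives p = 0.0292 and q = 0.529. Its partner in the U2 core, msl1, was at 6.36 and 10.2 FPKM (-0.61). Among SF3b subunits, sap145 was at 8.67 and 20.2 FPKM (-1.14), sap14 at 14.5 and 32.7 FPKM (-1.13), sap10 at 25.4 and 54.5 FPKM (-1.07) and sap49 at 27.3 and 33.9 FPKM (-0.30). The SF3a subunit sap61 was nearly level, at 18.8 and 20.8 FPKM (-0.14). No subunit named here passed the authors' threshold.

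The SF3b subunits were not uniform. The SF3b subunit prp12 was at 13.9 and 9.03 FPKM (0.57), and the small subunit ini1, alone in its locus, at 153 and 104 FPKM (0.55). The branch point binding protein gene bpb1 was at 54.3 and 35.0 FPKM (0.62). The helicase gene prp11, which acts when U2 joins the intron, was at 13.1 and 10.3 FPKM (0.31), and the small U2AF subunit uaf2 at 95.0 and 91.3 FPKM (0.06). None of these 5 passed the authors' threshold, and ini1 and bpb1 were lower by 0.12 and 0.05 (differences of -0.12 and -0.05) under equal FPKM totals. Of the U2 group only lea1, prp11 and ini1 are alone in their locus. Their median of 0.31 has the opposite sign, but it is the value of prp11, and lea1 was lower (-1.07).

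Among 10 genes of the U4/U6.U5 particle, 8 were lower or level and 2 higher, with a median of -0.33. The U4/U6 proteins lay on opposite sides: prp3 was at 5.59 FPKM under the Atf1 label and 13.5 under the vector label (-1.14), whereas rna4 was at 18.5 and 8.42 FPKM (1.05). The loci of prp3 and rna4 hold 6 and 4 genes, so both values are uncertain, as are those of other genes that share a locus. The U4/U6 protein prp31 was at 15.0 and 19.7 FPKM (-0.37), and prp1, whose product bridges U5 and U4/U6, at 9.28 and 20.0 FPKM (-1.03).

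The ubiquitin-like modifier hub1, alone in its locus, was at 29.9 and 52.1 FPKM (-0.78). The helicase brr2, which unwinds U4 from U6, was at 6.38 and 10.3 FPKM (-0.61). The U5 GTPase cwf10 (11.4 and 14.1 FPKM, -0.28), the helicase prp28 (17.0 and 19.7 FPKM, -0.21) and snu23 (15.0 and 15.0 FPKM, 0.00) differed little. The abundant snu13 had a difference of 0.45, which turned to -0.19 under quantile normalization and to -0.24 under equal FPKM totals. No gene of this particle passed the authors' threshold.

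The Prp19 complex and its cwf partners were the most uniform of the larger groups. Of 12 genes 11 (91.7%) were lower, beside 60.1% of protein-coding genes, and the median was -0.42. The lowest was the Syf1 homologue cwf3 (SPBC211.02c, chromosome II 3870132-3873758, a locus of 2 genes), at 2.15 FPKM under the Atf1 label and 7.64 under the vector label (-1.46). Its difference was -1.78 with a pseudocount of 0.1 and -0.82 with one of 5. The gene cwf25, which acts at the first catalytic step, was at 14.2 and 31.9 FPKM (-1.11), with p = 0.047 and q = 0.653 in the authors' deposited table. These were the 2 genes of the group past 2-fold.

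The gene cwf22, whose human homologue also recruits the exon junction complex, was at 9.48 and 18.2 FPKM (-0.87). The genes cwf26 (15.7 and 26.8 FPKM, -0.74) and cwf29 (29.9 and 49.9 FPKM, -0.72), homologues of members of the budding yeast RES complex, had like differences. The locus of cwf26 holds 11 genes, and cwf29 is alone in its locus. Smaller ones were seen for cwf19 (-0.46), cwf15 (-0.39), tls1 (-0.38), saf3 (-0.36), the Bud31 homologue cwf14 (-0.35) and the WD-repeat gene prp5 (46.1 and 48.4 FPKM, -0.07). The Clf1 homologue cwf4 was the single gene above 0, at 19.5 and 18.0 FPKM (0.11). With median-of-ratios scaling prp5 came to 0.05, so its sign is not settled.

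Of the helicases, uap56, which acts in early assembly and in mRNA export, was at 142 FPKM under the Atf1 label and 157 under the vector label (-0.14). The gene prp16, whose product remodels the spliceosome between its catalytic steps, was at 12.8 and 7.85 FPKM (0.64). They share loci with other genes, in groups of 7 and 4, and neither passed the authors' threshold.

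The genes of SR protein kinases and RNA-binding regulators held the one call. The gene csx1 (SPAC17A2.09c, chromosome I 3570007-3572345, alone in its locus and without introns) was at 76.2 FPKM under the Atf1 label and 22.5 under the vector label, a difference of 1.71 and a ratio of 3.38. In the authors' deposited table it has p = 0.00015 and q = 0.0195. Although the table gives it the splicing term and a place in the U2 particle, Csx1 is best known as an RNA-binding protein that stabilises atf1 mRNA under oxidative stress. Its difference ranged from 1.05 to 1.84 over the alternatives. The neighbouring spliceosome gene ntr2, whose locus lies 304 bases from that of csx1, was at 4.39 and 15.3 FPKM (-1.59). The LAMMER kinase lkh1 was at 9.75 and 6.16 FPKM (0.59), the SR protein kinase dsk1 at 12.7 and 14.4 FPKM (-0.17) and mug161 at 20.2 and 22.4 FPKM (-0.14).

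Of the 16 genes in none of these groups, 12 were lower and 4 higher, with a median of -0.84. The nuclear cap-binding subunits cbc1 (14.6 and 30.5 FPKM, -1.02) and cbc2 (10.9 and 22.9 FPKM, -1.0) were lower by like amounts. The gene dbr1, coding for the enzyme that opens intron lariats, was at 9.07 FPKM under the Atf1 label and 20.0 under the vector label (-1.06), with p = 0.0345 and q = 0.569 in the authors' deposited table. The RNPS1 homologue SPBC13G1.14c (11.7 and 25.2 FPKM, -1.05), dre4 (8.44 and 20.9 FPKM, -1.22) and SPBC1539.02 (3.73 and 9.33 FPKM, -1.13) were also past 2-fold, in shared loci. Just short of it were cxr1 (15.6 and 31.5 FPKM, -0.97) and SPAC57A7.13 (11.9 and 23.6 FPKM, -0.93), both alone in their locus.

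The transcription termination factor gene seb1, alone in its locus, was in the other direction at 72.9 and 38.6 FPKM (0.90), with p = 0.0907 in the authors' deposited table. The meiotic RNA-binding gene mug28 was at 3.40 and 1.84 FPKM (0.63). The other genes of this group lay between -0.76 (SPAC2G11.04) and 0.15 (SPAC23A1.09). The abundant tcg1, whose product binds single-stranded telomeric DNA, was at 133 and 167 FPKM (-0.32).

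**Figure D2:**
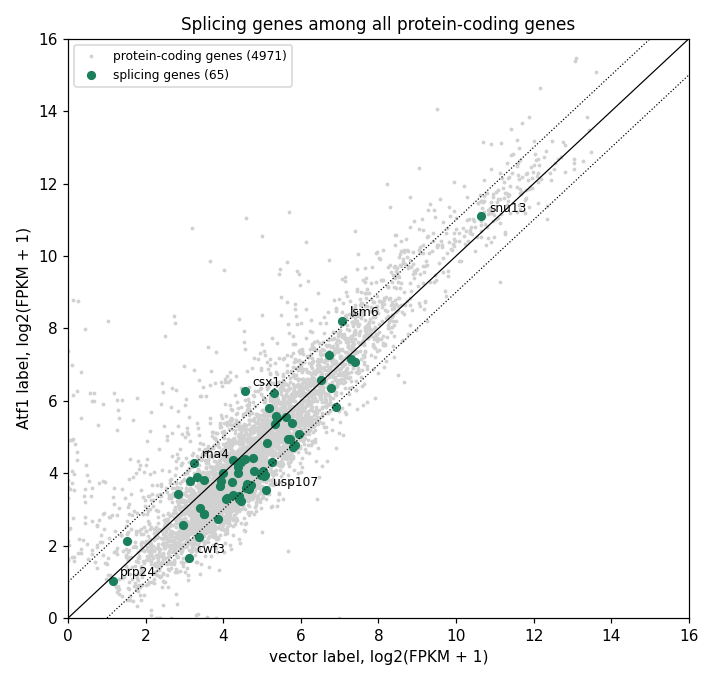
Level of each gene, log2(FPKM + 1), under the vector label (x axis) and the Atf1 label (y axis), for 4971 protein-coding genes (grey) and the 65 splicing genes (green); the solid line marks equal levels and the dotted lines a 2-fold difference. Most splicing genes lie under the solid line at low to middle levels, many of them near the lower dotted line, and csx1 lies above the upper one.

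The deposited coordinates are Cuffdiff loci, which can hold several genes, and reads of overlapping neighbours may not be separable. Alone in their locus were 19 splicing genes, and 46 shared one, with up to 11 genes. The medians were close, at -0.39 for genes alone and -0.37 for genes sharing. The shares were not: 12 of the 19 (63.2%) and 36 of the 46 (78.3%) were lower, beside 60.1% of protein-coding genes. At least 2-fold lower were 2 of the 19 (10.5%) and 15 of the 46 (32.6%), beside 14.1% of protein-coding genes. At least 2-fold higher were 2 of the 19 (10.5%) and 1 of the 46 (2.17%), beside 11.4%. The share of protein-coding genes was not computed by locus sharing. Genes alone in their locus were also more abundant, with a median of 39.6 FPKM under the vector label against 20.1 FPKM. Whether locus sharing or level plays a part in these counts was not tested.

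Groupings by chromosome, level and intron number were chosen after values had been seen and are given as description. On chromosome II, 28 of 31 splicing genes (90.3%) were lower, with a median of -0.78. Of protein-coding genes there 60.2% were lower, with a median of -0.21. On chromosome I, 18 of 30 (60%) were lower with a median of -0.14, beside 61.2% and -0.25 for protein-coding genes there. The 4 genes on chromosome III had a median of 0.05. Among genes alone in their locus, 8 of 9 on chromosome II and 4 of 9 on chromosome I were lower. The 3 genes at least 2-fold higher all lie on chromosome I.

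Splicing genes of 10 to 30 FPKM, by the mean of both groups, were the most numerous: 33 of the 65, with a median of -0.76 beside -0.41 for 1711 protein-coding genes of that level. The 10 genes under 10 FPKM had a median of -0.49, beside -0.53 for protein-coding genes. The 17 genes of 30 to 100 FPKM had a median of -0.30 beside -0.07, and the 5 above 100 FPKM a median of 0.45 beside 0.47. Protein-coding genes as a whole thus ran from lower to higher differences with level, and splicing genes did so from 10 FPKM up.

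All 65 splicing genes matched a RefSeq gene model (assembly ASM294v3), and 42 of them hold introns themselves, up to 4. The 42 had a median difference of -0.67, with 34 lower, and the 23 without introns had a median of -0.17, with 14 lower. Among protein-coding genes the medians were -0.38 for 2430 genes with introns and -0.05 for 2533 without. The genes csx1, sap145, usp104 and cwf4 are among those without introns, and lsm6 and usp107 hold 2 each. Genes with more introns were not ordered among splicing genes: the median was -0.72 with 1 intron, -0.62 with 2, -0.13 with 3 and -1.06 for the 3 genes with 4.

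**Figure D3:**
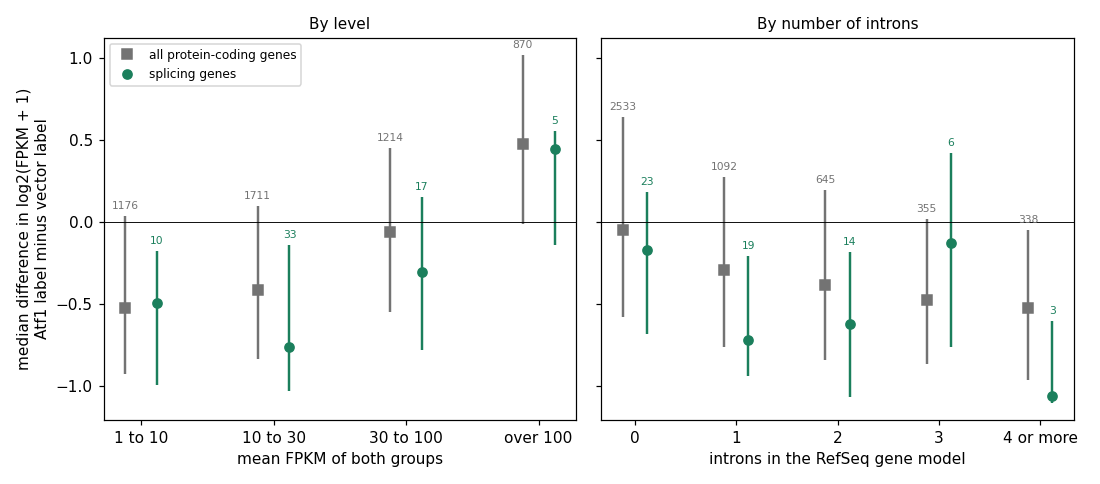
Median difference in log2(FPKM + 1), Atf1 label minus vector label (y axis), by mean FPKM (left) and by number of introns in the RefSeq model (right), for all protein-coding genes (grey squares) and splicing genes (green circles); bars span the quartiles over genes and numbers give the genes in each class. Splicing genes lie under the protein-coding median at 10 to 30 FPKM (-0.76 and -0.41), and close to it above 100 FPKM (0.45 and 0.47).

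The table's cellular component terms, which overlap, were also summarised. The 11 splicing genes annotated to the U1 snRNP had a median of -0.95 with 10 (90.9%) lower. The 12 of the catalytic step 2 spliceosome had a median of -0.87 with 11 (91.7%) lower, beside 60.1% of protein-coding genes. The 15 of the U2 snRNP had a median of -0.61, the 14 of the post-mRNA release complex -0.44, the 12 of the tri-snRNP -0.40 and the 5 of the Prp19 complex -0.28. For U2 this is lower than the role group's -0.22, and for the Prp19 complex it is nearer to the protein-coding median than the role group's -0.42.

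Spliceosome genes listed here by symbol, whose annotation names splicing in other words, were also mostly lower. Of these 55 genes 43 (78.2%) were lower, beside 60.1% of protein-coding genes, and 12 were higher. Their median was -0.75. At least 2-fold lower were 19 (34.5%) and at least 2-fold higher 1 (1.82%), beside 14.1% and 11.4% of protein-coding genes. By the authors' q-value 0 were called in either direction, beside 1.82% of all kept genes higher and 0.129% lower. The Prp19 group had 20 of 24 lower. Its lowest genes, both in shared loci and neither past the authors' threshold, were cwf24 at 0.0777 and 9.12 FPKM (-3.23, a locus of 2 genes) and cdc5 at 4.32 and 22.7 FPKM (-2.16, a locus of 3 genes). The gene prp19 itself was at 83.9 and 80.2 FPKM (0.06). The U5 protein gene dim1 (24.2 and 68.1 FPKM, -1.46, alone in its locus) was among the lowest, while the large U2AF subunit prp2 was at 21.3 and 38.0 FPKM (-0.81). The SR protein genes went the other way for srp2 (330 and 162 FPKM, 1.02) and rsd1 (61.9 and 31.8 FPKM, 0.94), and srp1 was at 94.0 and 117 FPKM (-0.32).

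The spliceosomal RNAs themselves lack poly(A) tails, and a kit for mRNA was used for the libraries. The U1 RNA gene snu1 rose, from 76.5 FPKM under the vector label to 1331 under the Atf1 label, with q = 0.0241 in the authors' deposited table and in a locus of 2 genes. The U2 RNA gene snu2 was at 126 FPKM under the Atf1 label and 40.8 under the vector label, with q = 0.739 in the authors' deposited table. The gene snu5 was listed at 0 under the Atf1 label and at 7.76 FPKM under the vector label, snu6 was at 222 FPKM under the Atf1 label and listed at 0 under the vector label, and snu4 was listed at 0 in both and not tested by the authors. For U1, the RNA was higher, while the 5 splicing genes of its particle had a median of -0.95. The 4 U1 protein genes outside the rule were all lower, with a median of -0.62. An RNA without a poly(A) tail and mRNAs are not measured alike with such a kit, so these levels are not directly comparable.

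The splicing genes were next set beside other RNA processing lists of the table. The 115 rRNA processing genes had a median of -0.84. Of these 98 (85.2%) were lower, beside 60.1% of protein-coding genes, and 42 (36.5%) at least 2-fold lower, beside 14.1%. The 30 genes of mRNA 3′-end processing or polyadenylation had a median of -0.48 with 23 (76.7%) lower. The 6 genes that carry both the splicing and the rRNA term had a median of -0.78. The splicing genes at -0.38 thus lay between the protein-coding median and these lists, and no test of these differences can be made from 1 value per group.

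**Figure D4:**
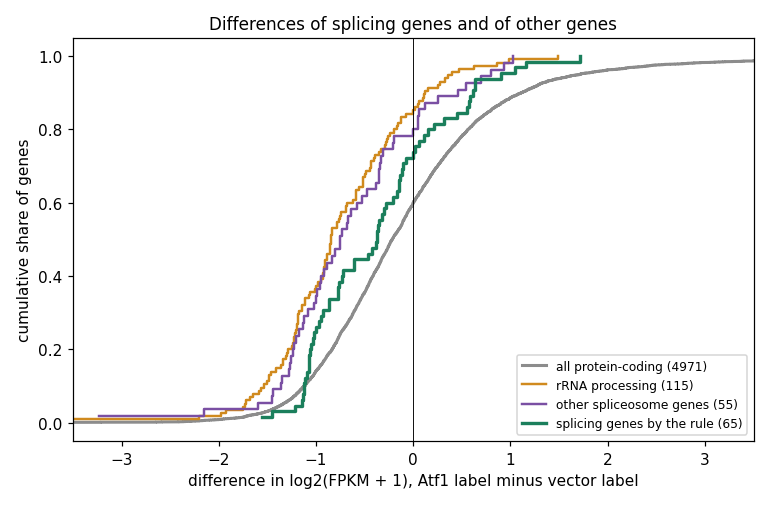
Cumulative share of genes (y axis) by difference in log2(FPKM + 1), Atf1 label minus vector label (x axis), for 4971 protein-coding genes, the 65 splicing genes, 55 other spliceosome genes and 115 rRNA processing genes. At a difference of 0 the green curve of the splicing genes has passed 73.8% of its genes and the grey curve of protein-coding genes 60.1%; the curves of the other spliceosome and rRNA processing genes lie further left.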

How the data were processed

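RNA of 4 libraries in 2 groups was measured. Per the submitters' processing notes, HISAT2 and Cuffdiff were used with build ASM294v2, with no version given. The authors deposited FPKM, 1 pooled value per group and gene, and a p-value and a q-value per gene. The sources used here do not give how the authors scaled the groups, and depth is unknown. At most 2 libraries per group stand behind a p-value, and the spread between them may be technical only.

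The members and lists were chosen with earlier results of these data known. Differences are log2(FPKM + 1), on which changes of low genes are understated. Genes of status OK and a mean of at least 1 FPKM were kept (6219), and protein-coding means nuclear with a protein length in the table (4971). No test was computed: the planned limma fit needs values per library. Named by rule were called members, the 12 smallest p-values, the extremes and highest level of each of 8 role groups, and the members nearest the level minimum. The other members are given so that the set is complete, and genes outside the set were picked with their values in view. Symbols sad1, spp2, srk1, cyp1 and rtf2 of the role lists met genes with no splicing term and were not used.

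Intron numbers come from the RefSeq annotation of ASM294v3, matched by gene ID (6746 of 7092), with no coordinates taken from it. Sequences and promoter motifs were not analysed here, since the genome at hand is a later assembly than that of the files. Coordinates are 1-based. The median of a list relative to all genes (without a pseudocount), the scalings and the adjustment of p-values were tested on simulated data. The counts of genes reported here were not. The work ran in Python 3.11.15, with pandas 2.3.3, numpy 2.4.6 and, for plots, matplotlib 3.10.9. Alternatives included pseudocounts of 0.1 and 5, other level minimums, 3 scalings, other thresholds for calls and other rules for members, including genes alone in their locus.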

Additional observations from a re-analysis of the deposited data

How the results depend on the processing

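No paired analysis was possible because libraries of a group were pooled before deposit, and leaving out libraries was not run for the same reason. Removing genes with near-identical copies was planned and not run. Values with no test were counted as moved past 0.2 on the log2 scale, a limit set after values had been seen, since no spread between libraries exists. The count of splicing genes at least 2-fold lower, 17 as reported, came to 2 among genes alone in their locus, 2 when the pseudocount was 5, 8 after quantile normalization, 7 after median-of-ratios scaling and 35 for equal FPKM totals. Equal FPKM totals also took the median difference to -1.02 and the count at least 2-fold higher from 3 to 1, while shifting the median of all kept genes by -0.63. Median-of-ratios scaling shifted that median by 0.12. The count of splicing genes called higher was 0 at q under 0.01 and 2 at an unadjusted p under 0.05 in the authors' deposited table, and that called lower was 4 at this p. The median relative to protein-coding genes lay between -0.26 and -0.15 in the 11 alternatives, several of which could hardly move it. Keeping genes near chromosome ends changed nothing, dropping the level minimum changed no splicing gene, and a common scaling factor shifts both medians. For genes alone in their locus only the splicing genes were restricted, so they were set against all protein-coding genes. Of the alternatives, only the 3 scalings could turn the sign of a single gene, and among 28 named splicing genes they did so for bpb1, cwf4, dsk1, ini1, prp5, snu13 and usp101. Role medians changed sign for the LSm ring with rRNA processing genes kept (-0.52) and the helicases with equal totals (-0.40). That of the SR and RNA-binding group did so with a minimum mean of 10 FPKM (-0.14) and with equal totals (-0.41). The U2 median did so among genes alone in their locus (0.31), where only lea1, prp11 and ini1 remain and it is the value of prp11. Beyond the change built into each scaling or selection, the cause was not tested.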

Other observations

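Intron number and the difference between groups went together over the whole set of protein-coding genes, in a grouping chosen after values had been seen. The median difference was -0.05 for 2533 genes without introns, -0.29 for 1092 genes with 1 intron, -0.38 for 645 with 2, -0.48 for 355 with 3 and -0.52 for 338 with 4 or more. The gap between genes without and with introns was present at each level of expression. The medians were -0.36 and -0.68 for genes of 1 to 10 FPKM, -0.22 and -0.57 for genes of 10 to 30 FPKM, 0.12 and -0.25 for genes of 30 to 100 FPKM, and 0.66 and 0.33 above 100 FPKM. At least 2-fold higher were 16.7% of genes without introns and 5.68% of genes with introns. FPKM of spliced transcripts says nothing of how much unspliced RNA was present, and intron retention was not analysed here.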
